A study of Homo sapiens with 9 samples.

Results

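The 36 mitosis and spindle genes described here encode the cyclins and kinases that start mitosis, the kinetochore and spindle machinery that moves chromosomes, the checkpoint that guards their separation and the motors and scaffolds that divide the cell. They were chosen by gene symbol, and every probe set that the platform annotation pairs with exactly 1 of these symbols was taken. This gave 70 probe sets of 54613 tested and 36 genes of 19775 measured, so that 36 of 36 had at least 1 probe set. Unless another probe set is named, a gene was read from the brightest of its probe sets, by mean value on the 9 arrays.

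RNA came from Huh7, an established human hepatocellular carcinoma line, on 9 Affymetrix expression arrays. The arrays fall into PGG at 0.1 mg/mL for 6 hours (PGG 6 h), PGG at 0.1 mg/mL for 48 hours (PGG 48 h) and the solvent PBS for 48 hours (PBS), with 3 arrays each. PGG is a plant gallotannin, penta-O-galloyl-glucopyranoside, in which glucose carries a gallic acid ester on each of its hydroxyls, and the arrays were run to look for how PGG raises expression of GNMT, a liver methyltransferase. All groups are cultures of a single line, and the labels number the arrays as biological replicates without naming separate cultures, so a p-value measures the spread between these arrays only. Another label field of the PBS arrays gives 0 hours of PGG where the titles give 48 hours of PBS. No PBS array of 6 hours was analysed here, so at 6 hours an effect of PGG and one of time in culture cannot be told apart.

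Levels are log2 values after RMA, the authors' normalization of Affymetrix probe sets, and a difference of 1 is a ratio of 2. A gene was called higher or lower at an adjusted p under 0.05 in a limma fit over the 9 arrays. Array medians lay between 5.16 and 5.20, and arrays of a group correlated at 0.993 to 0.998 across probe sets. The hepatocyte and hepatoma markers AFP and ALB averaged at least 13.10 in each group, and the summed linear signal of 9 such markers was 52974 to 53818 in PGG 6 h, 41642 to 42361 in PGG 48 h and 47153 to 47478 in PBS. The sum of 13 markers of blood, endothelial and stromal cells was 512 to 541 in PGG 6 h, 578 to 602 in PGG 48 h and 564 to 580 in PBS, and without LUM it was 505 to 532 in PGG 6 h, 509 to 531 in PGG 48 h and 555 to 572 in PBS, so the higher sum in PGG 48 h rests on LUM. Among these markers none was at 0, PTPRC and KDR had group means between 3.26 and 3.38, and the stromal gene LUM averaged 6.19 in PGG 48 h against 2.93 in PBS. Of these 13 markers 1 was higher and 1 lower at 6 hours. At 48 hours 3 were higher and 3 lower, from CD14 (-1.37) to LUM (3.27). Of the 9 hepatocyte and hepatoma markers 4 were higher and 0 lower at 6 hours. At 48 hours 3 were higher and 5 lower, from APOB (-1.99) to TTR (1.00). All genes gave 15.5% each way at 6 hours, and 22.9% higher and 23.2% lower at 48 hours. For ACTB, the log2 signal at the 3′ end exceeded that at the 5′ end, a gap that widens as RNA degrades, by 1.13 to 1.23 in PGG 6 h, 2.14, 4.03 and 2.67 in PGG 48 h and 0.96 to 1.57 in PBS. For GAPDH the same gap was 0.19 to 0.24 in PGG 6 h, 0.27, 1.83 and 0.39 in PGG 48 h and 0.13 to 0.35 in PBS. On GAPDH, replicate 1 of PGG 48 h thus lay within PBS and replicate 2 had the widest gap. The marker sums and the ACTB gap moved with PGG 48 h, and their part in the results at that time was not tested. Without the array with the gap of 4.03, replicate 2 of PGG 48 h, 26 of the 36 genes were lower and 4 higher at 48 hours and the median log2 difference was -0.60, against 26, 4 and -0.58 with it.

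Transcription of mitotic genes is periodic. In G1 the DREAM complex, built on MuvB proteins such as LIN37, LIN52, LIN54 and LIN9 with E2F4 and RBL1 or RBL2, keeps them silent, and from S phase on the same core joins MYBL2 and then FOXM1 to activate them. MuvB binds a short element called the cell cycle genes homology region (CHR), often close to CCAAT boxes bound by NFY. A bulk RNA level of such a gene therefore reads both how many cells are in G2 or M phase and how much RNA each of them holds, which cannot be told apart here.

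To show this shared promoter layout, the RefSeq windows (GRCh38.p14) of 250 bases before to 50 after a start site were searched on both strands. Capitals mark the CHR TTTGAA, its variants TTCGAA and TTTAAA, and CCAAT, each read on either strand. CDC20 and PLK1 had among the largest falls under PGG at 48 hours, CCNB1 was lower at 48 hours and higher at 6 hours, CENPE was lower at both times and KIF2C was higher at both. Their windows are chr1:43358731-43359030, chr16:23678639-23678938, chr5:69166900-69167199 and chr1:44739587-44739886 on the plus strand for CDC20, PLK1, CCNB1 and KIF2C, and chr4:103198294-103198593 on the minus strand for CENPE.
CDC20: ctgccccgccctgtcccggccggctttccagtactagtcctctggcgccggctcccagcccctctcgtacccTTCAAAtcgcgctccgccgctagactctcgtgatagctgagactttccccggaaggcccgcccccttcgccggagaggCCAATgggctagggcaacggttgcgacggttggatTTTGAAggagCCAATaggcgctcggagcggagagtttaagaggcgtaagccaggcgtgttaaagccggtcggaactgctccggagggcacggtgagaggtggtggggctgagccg
PLK1: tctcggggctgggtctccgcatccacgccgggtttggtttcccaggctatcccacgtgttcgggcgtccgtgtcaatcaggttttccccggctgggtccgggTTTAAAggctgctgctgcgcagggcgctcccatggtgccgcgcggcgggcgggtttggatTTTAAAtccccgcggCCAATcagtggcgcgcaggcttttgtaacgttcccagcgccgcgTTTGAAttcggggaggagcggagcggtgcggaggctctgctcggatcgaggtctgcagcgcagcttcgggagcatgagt
CCNB1: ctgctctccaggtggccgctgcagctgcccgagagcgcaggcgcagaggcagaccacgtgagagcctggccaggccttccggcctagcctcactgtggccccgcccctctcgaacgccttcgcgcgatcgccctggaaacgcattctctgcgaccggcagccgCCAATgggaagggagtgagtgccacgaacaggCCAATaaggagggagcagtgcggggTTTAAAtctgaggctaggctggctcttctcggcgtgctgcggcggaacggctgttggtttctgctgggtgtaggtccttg
CENPE: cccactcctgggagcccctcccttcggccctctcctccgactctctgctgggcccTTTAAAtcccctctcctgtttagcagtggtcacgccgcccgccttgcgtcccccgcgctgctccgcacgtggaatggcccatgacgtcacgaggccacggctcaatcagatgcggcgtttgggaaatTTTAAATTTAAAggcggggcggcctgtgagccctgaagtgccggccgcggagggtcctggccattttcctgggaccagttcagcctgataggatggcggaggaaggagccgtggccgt
KIF2C: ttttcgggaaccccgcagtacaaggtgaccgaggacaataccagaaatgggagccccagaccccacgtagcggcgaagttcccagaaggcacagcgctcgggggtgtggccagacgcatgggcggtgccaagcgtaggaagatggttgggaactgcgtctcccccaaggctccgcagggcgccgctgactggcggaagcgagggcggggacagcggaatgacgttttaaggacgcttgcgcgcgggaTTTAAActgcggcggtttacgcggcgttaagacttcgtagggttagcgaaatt

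Counting bases from the start site, CDC20 held a CHR at -65 between CCAAT boxes at -100 and -55, and another CHR at -178 on the other strand. PLK1 held a CHR at -29 with a CCAAT box at -73. CCNB1 had no TTTGAA but TTTAAA at -30, downstream of CCAAT boxes at -87 and -55. CENPE, with TTTAAA at -195, -68 and -62, and KIF2C, with TTTAAA at -3, had no CCAAT. Of the 31 members with at least 1 window in the table, 71% held a CHR, against 15.6% of 15384 measured genes with a window and 18.2% of all 27305 genes of the table. CCAAT was found in 83.9% of the 31 members, 41.7% of measured genes and 39.7% of all genes, and a CHR together with CCAAT in 61.3%, 7.93% and 8.37%. TTTAAA was found in 41.9% of the members, 12.3% of measured genes and 14.5% of all genes, and TTCGAA in 6.45%, 2.16% and 1.82%. The E2F sites TTTCGCGC, TTTGGCGC or TTTCCCGC were found in 9.68% of members, 4.45% of measured genes and 3.30% of all genes. The E-box CACGTG stood in 12.9% (4 of 31), 10.9% and 8.77%, a share in members near that of measured genes. Among the 23 members with a window that were lower at 48 hours 69.6% held a CHR and 87% CCAAT, against 75% and 75% among the other 8. A match says only that these letters stand in the window. BIRC5, TTK, UBE2C, TPX2 and AURKA had no window in the table.

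At 6 hours of PGG more of the 36 genes were higher than lower. The comparisons at 6 and 48 hours share the PBS arrays, so their values are given side by side and are not independent of each other. Compared with PBS, 13 of 36 were higher and 6 lower, while 17 were not called. Over all 19775 genes the same fit called 15.5% higher and 15.5% lower, against 36.1% and 16.7% of the members. The members' lower share was thus near that of all genes. The median log2 difference of the members was 0.10, against 0.01 over all genes, and single genes ranged from -1.53 to 0.93. By probe set 24 of 70 were higher and 9 lower, where the whole array gave 12.2% and 12.5%.

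At 48 hours most of the genes were lower. Compared with PBS, 26 of 36 were lower (72.2%) and 4 higher (11.1%), where all genes gave 23.2% and 22.9%. Of the 26, 13 were lower by at least 2-fold, a size for which no share over all genes was computed. The median log2 difference was -0.58 for the members and -0.02 for all genes. By probe set 47 of 70 were lower and 6 higher, against 20.2% and 18.8% of the whole array. At the cut-offs of the study, which ask for a log2 difference beyond 1.5 and for an adjusted p under 0.005, 8 members were lower and 0 higher, where all genes gave 2.13% and 3.09%.

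Set directly against PGG 6 h, PGG 48 h had 31 of 36 members lower and 2 higher, with 22% of all genes lower and 22.4% higher. The median log2 difference was -0.82. Of the other 3 members, NEK2, INCENP and NUF2, none passed the test in that comparison, and the members higher at 48 than at 6 hours were TTK and CDC25C. The CDC25C call (log2 difference 0.35, limma adjusted p = 0.0021) rests on its brightest probe set. Its dimmer probe sets gave -0.42 and -0.03 (adjusted p = 0.051 and 0.83).

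**Figure D1:**
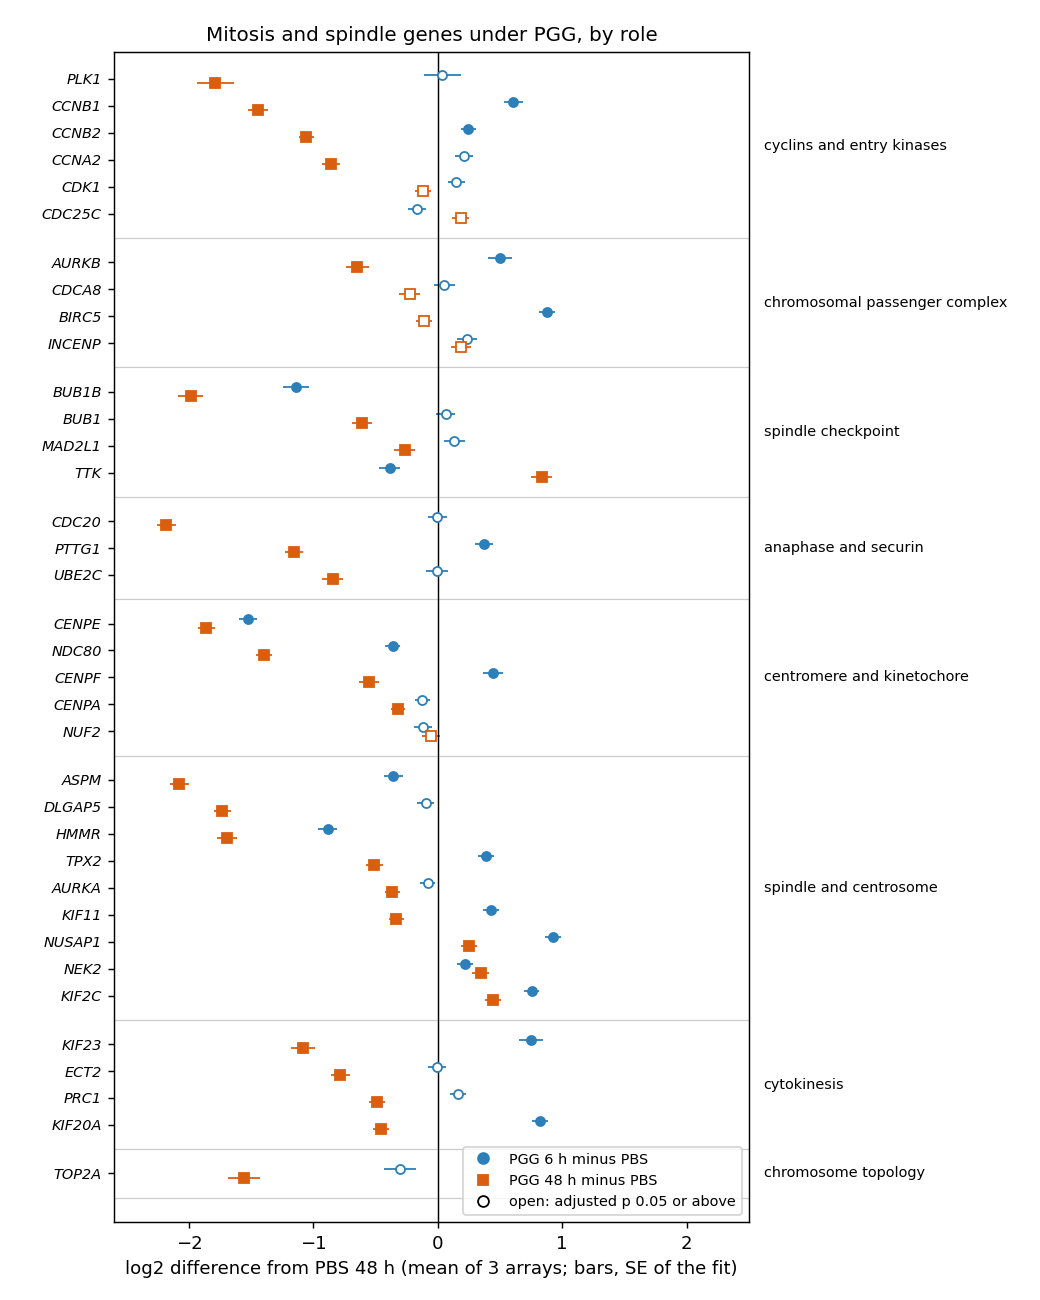
Log2 difference from PBS of the 36 genes, grouped by role, for PGG 6 h (circles) and PGG 48 h (squares), each the mean of 3 arrays with the SE of the fit, and open symbols where the adjusted p was 0.05 or above. Most squares lie left of 0, with TTK at 0.84 the farthest to the right, while the circles spread to both sides between -1.53 and 0.93.

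The per-array medians had the same order. The median member, relative to its PBS mean, was at 0.14, 0.06 and 0.07 on the PGG 6 h arrays, at -0.61, -0.45 and -0.60 on the PGG 48 h arrays and between -0.02 and 0.02 on the PBS arrays. On each PGG 48 h array 30 of 36 members lay below their PBS mean, and on each PGG 6 h array 14 did. On the PBS arrays, which make up that mean, 18, 11 and 26 did, so the count at 6 hours lies within the PBS range. By group mean, 10429 of all 19775 genes were below PBS at 48 hours and 9617 at 6 hours.

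**Figure D2:**
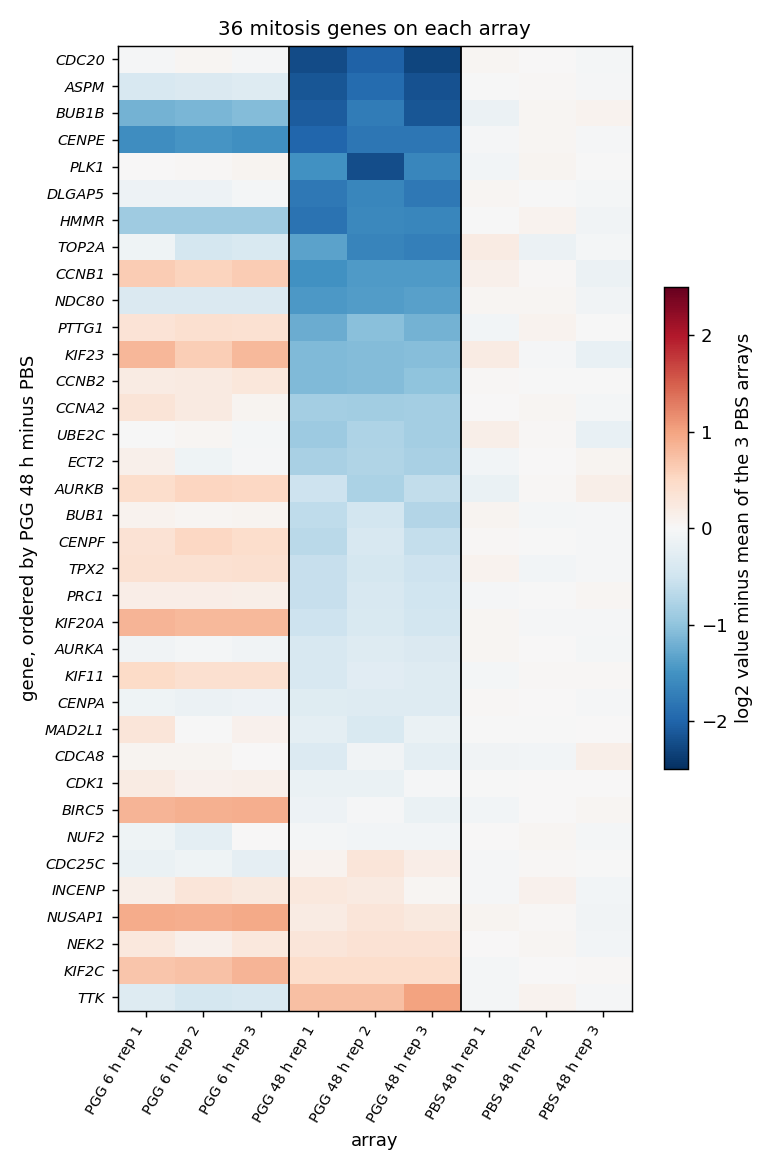
Log2 value of each of the 36 genes on each of the 9 arrays minus the mean of the 3 PBS arrays, with genes ordered by their difference at 48 hours. The 3 PGG 48 h columns are blue (lower) for 30 of 36 genes, down to CDC20 at the top, and red for 6 genes at the bottom.

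The role groups hold 1 to 9 genes, so their counts are descriptions, to be read against the 15.5% of all genes called in each direction at 6 hours and the 22.9% higher and 23.2% lower at 48 hours. Among the cyclins and entry kinases, which switch on CDK1 and so open mitosis, 2 of 6 were higher at 6 hours and 4 of 6 lower at 48 hours, with a median log2 difference of 0.18 and -0.96. PLK1, the polo-like kinase that acts in mitotic entry, spindle assembly and cytokinesis, read 7.64, 7.66 and 7.70 in PGG 6 h, 6.12, 5.41 and 5.99 in PGG 48 h and 7.57, 7.70 and 7.62 in PBS. The 6 hour arrays overlapped PBS, with a log2 difference of 0.04 (SE 0.15, adjusted p = 0.91), whereas the 48 hour arrays were all lower, 3.46-fold on average (log2 difference -1.79, SE 0.15, adjusted p = 2.0e-06). The PGG 48 h arrays of PLK1 spread more than those of any other named gene, with an SD of 0.38.

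CCNB1, the B-type cyclin that activates CDK1, read 10.41, 10.33 and 10.42 in PGG 6 h, 8.26, 8.37 and 8.37 in PGG 48 h and 9.90, 9.80 and 9.64 in PBS. No group overlapped another. It was higher by 0.61 at 6 hours (SE 0.08, adjusted p = 0.00017) and lower by 2.73-fold at 48 hours (log2 difference -1.45, SE 0.08, adjusted p = 6.9e-08). CCNB1 is given in full, and its other probe set added, after their values were seen. That probe set gave -0.00 at 6 hours (SE 0.08, adjusted p = 0.98) and -2.37 at 48 hours (SE 0.08, adjusted p = 4.1e-09), so both probe sets were lower at 48 hours and 1 was higher at 6 hours.

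CCNB2, its close relative, had log2 differences of 0.24 and -1.06 at 6 and 48 hours and passed the test both times (adjusted p = 0.012 and 1.1e-07). The call at 6 hours was lost without replicate 3 of PGG 6 h, and on its second-brightest probe set, which is dim, neither time was called (log2 differences 0.07 and 0.02, adjusted p = 0.63 and 0.91). CCNA2, the cyclin of S and G2 phase, was lower at 48 hours (log2 difference -0.86, SE 0.07, adjusted p = 2.6e-06) and not called at 6 hours, where its difference was 0.21 (SE 0.07, adjusted p = 0.061) and its second probe set gave 0.48 (adjusted p = 0.010). CDK1 itself, the catalytic partner of these cyclins, differed from PBS by 0.15 at 6 hours and -0.12 at 48 hours (SE 0.07 each, adjusted p = 0.14 and 0.20). For CDC25C, the phosphatase that activates CDK1, the values were -0.17 and 0.18 (SE 0.07 each, adjusted p = 0.12 and 0.065). On these brightest probe sets neither was called against PBS at either time. Of the 3 dimmer CDK1 probe sets 2 were higher at 6 hours, by 0.24 and 0.34 (adjusted p = 0.031 and 0.012), and of the 2 dimmer ones of CDC25C 1 was lower at 48 hours (log2 difference -0.55, adjusted p = 0.013). The CDK1 probe set with 0.24 is of the type that can cross-hybridise.

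The chromosomal passenger complex corrects faulty attachments of chromosomes to the spindle. It joins the kinase AURKB to INCENP, BIRC5 (survivin) and CDCA8 (borealin). At 6 hours 2 of 4 of its genes were higher and at 48 hours 1 of 4 was lower, close to the 23.2% of all genes. BIRC5 read 10.19, 10.23 and 10.25 in PGG 6 h, 9.21, 9.32 and 9.17 in PGG 48 h and 9.28, 9.36 and 9.39 in PBS. The 6 hour arrays all lay above PBS, by 0.88 (SE 0.07, adjusted p = 3.7e-06), whereas the 48 hour arrays overlapped it (log2 difference -0.11, SE 0.07, adjusted p = 0.23). Of its 3 dimmer probe sets 2, chosen after their values were seen, were lower at 48 hours by -0.42 and -0.79 on the log2 scale (adjusted p = 0.0010 and 0.0025) and higher at 6 hours by 1.18 and 0.50 (adjusted p = 1.6e-06 and 0.048). The BIRC5 probe set with -0.79 and 0.50 is of the type that can cross-hybridise. AURKB was higher by 0.50 at 6 hours (SE 0.09, adjusted p = 0.0023) and had a log2 difference of -0.65 at 48 hours (SE 0.09, adjusted p = 0.00018). Its other, dimmer probe set was called at neither time (log2 differences -0.05 and -0.22, adjusted p = 0.84 and 0.24), and with the mean of both the 6 hour call was lost. INCENP and CDCA8 were not called at either time, with differences of 0.23 and 0.05 at 6 hours and of 0.18 and -0.23 at 48 hours (adjusted p from 0.057 to 0.74). The calls of both lay near the threshold: INCENP at 6 hours passed under 9 and CDCA8 at 48 hours under 8 of 20 alternative settings.

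The spindle checkpoint holds back anaphase until every kinetochore is attached. Of its 4 genes 2 were lower and 0 higher after 6 hours of PGG. After 48 hours 3 were lower and TTK was higher. BUB1B, which encodes the checkpoint protein BubR1, read 8.63, 8.67 and 8.72 in PGG 6 h, 7.74, 8.06 and 7.68 in PGG 48 h and 9.67, 9.87 and 9.90 in PBS. It fell at both times without overlap, 2.20-fold at 6 hours (log2 difference -1.14, SE 0.10, adjusted p = 1.4e-05) and 3.96-fold at 48 hours (log2 difference -1.99, SE 0.10, adjusted p = 5.4e-08).

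TTK, the kinase MPS1 at the top of the same checkpoint, went the other way. It read 8.39, 8.28 and 8.32 in PGG 6 h, 9.47, 9.46 and 9.73 in PGG 48 h and 8.66, 8.80 and 8.69 in PBS. The 48 hour arrays were above all PBS arrays and the 6 hour arrays below them, with log2 differences of 0.84 (SE 0.08, adjusted p = 9.9e-06) and -0.39 (SE 0.08, adjusted p = 0.0056). TTK had the largest rise of the 36 genes at 48 hours and was measured by 1 probe set only. BUB1, the kinase that recruits other checkpoint proteins, had a log2 difference of -0.61 at 48 hours (SE 0.08, adjusted p = 6.3e-05) and of 0.06 at 6 hours (adjusted p = 0.65). MAD2L1, which encodes the inhibitor MAD2, was lower at 48 hours by a small margin (log2 difference -0.27, SE 0.09, adjusted p = 0.031), a call that 7 of 20 alternatives took away, among them leaving out any single PBS array. Its other probe sets were lower at 48 hours too, by log2 differences of -0.95 and -0.35 (adjusted p = 1.1e-05 and 0.0030). At 6 hours MAD2L1 differed by 0.13 on the brightest probe set (adjusted p = 0.34) and by -0.13 and 0.55 on the others, the last of which was called higher (adjusted p = 0.00027).

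**Figure D3:**
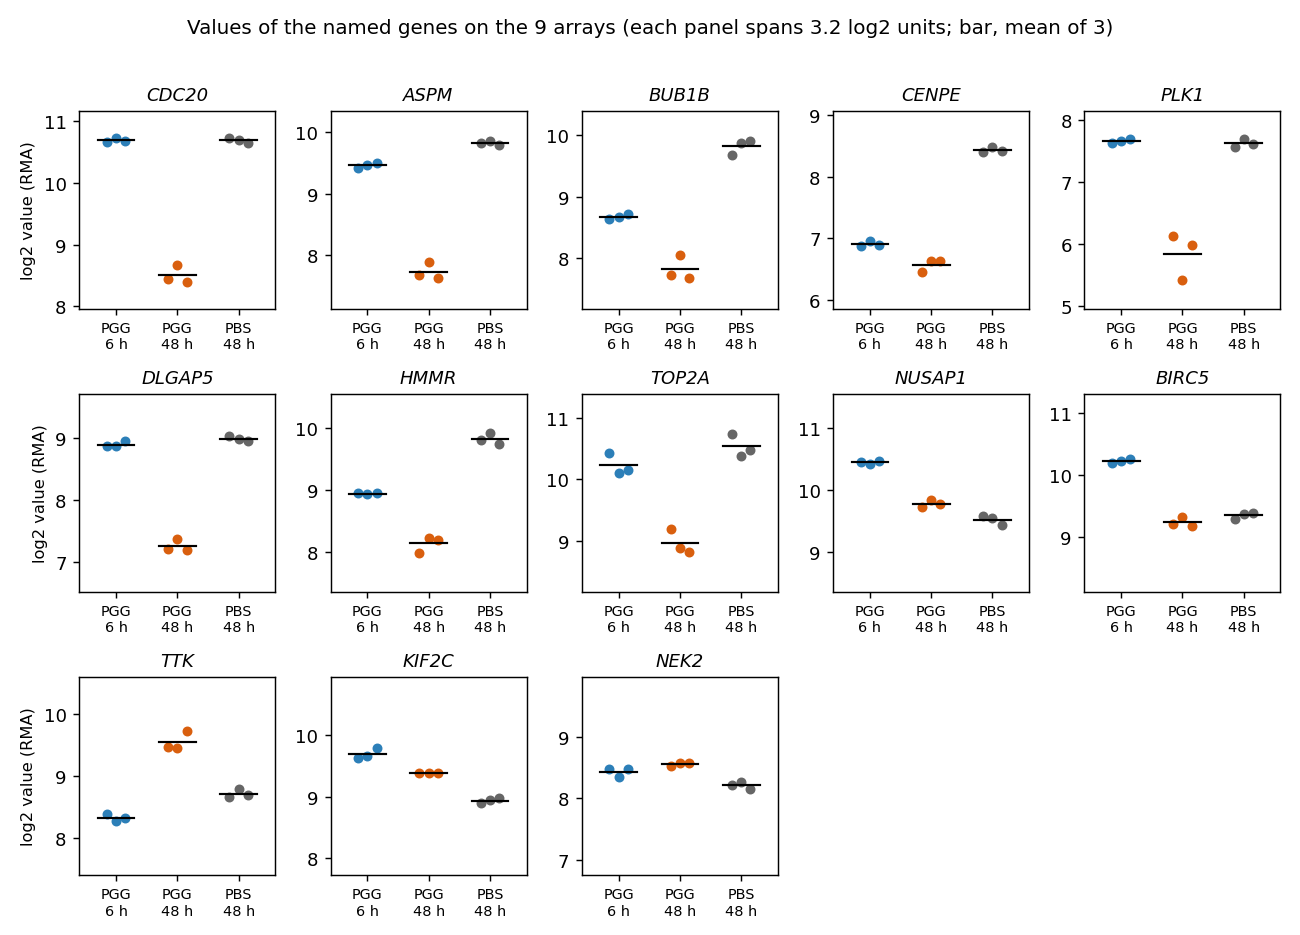
Log2 values on the 9 arrays of 13 genes, those with the largest changes or higher at 48 hours, with PGG 6 h on the left, PGG 48 h in the middle and PBS on the right of each panel, and bars at the mean of 3. CDC20, PLK1 and DLGAP5 drop in PGG 48 h alone, CENPE, BUB1B and HMMR are below PBS in both PGG groups, and TTK is above it in PGG 48 h.

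Anaphase starts when CDC20 activates the anaphase-promoting complex (APC/C), which with the ubiquitin-conjugating enzyme UBE2C destroys securin, the product of PTTG1, and cyclin B. All 3 genes were lower at 48 hours. CDC20 read 10.66, 10.73 and 10.67 in PGG 6 h, 8.45, 8.67 and 8.40 in PGG 48 h and 10.73, 10.69 and 10.65 in PBS. At 6 hours it overlapped PBS (log2 difference -0.00, SE 0.08, adjusted p = 0.98), and at 48 hours it was 4.54-fold lower (log2 difference -2.18, SE 0.08, adjusted p = 4.4e-09), the largest fall of the 36 genes by brightest probe set. UBE2C had log2 differences of -0.01 and -0.85 at 6 and 48 hours (SE 0.08 each, adjusted p = 0.97 and 9.6e-06). PTTG1 was higher at 6 hours by 0.37 and had a difference of -1.15 at 48 hours (SE 0.07 each, adjusted p = 0.0030 and 2.5e-07). Its only probe set is of the type that can cross-hybridise, and PTTG1 has near-identical copies in the genome, so its signal may hold more than 1 gene.

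Of the 5 centromere and kinetochore genes 4 were lower at 48 hours. The 6 hour arrays had 2 of them lower and 1, CENPF, higher. CENPE, the kinesin that carries chromosomes to the metaphase plate, read 6.87, 6.95 and 6.89 in PGG 6 h, 6.45, 6.63 and 6.63 in PGG 48 h and 8.40, 8.48 and 8.41 in PBS. It was 2.88-fold lower at 6 hours, the largest difference of the 36 genes at that time and the only one past the cut-offs of the study (log2 difference -1.53, SE 0.07, adjusted p = 1.4e-07), and 3.63-fold lower at 48 hours (log2 difference -1.86, SE 0.07, adjusted p = 6.0e-09). NDC80, the microtubule-binding subunit of the outer kinetochore, was also lower at both times, by 1.29-fold and 2.63-fold (adjusted p = 0.0012 and 1.9e-08). NUF2, its direct partner in the same complex, differed from PBS by -0.12 and -0.06 on the log2 scale (SE 0.07 each, adjusted p = 0.32 and 0.60).

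CENPF, a large kinetochore protein, was higher at 6 hours by 0.44 and had a log2 difference of -0.56 at 48 hours (SE 0.08 each, adjusted p = 0.0018 and 0.00017). The second-brightest of its 3 probe sets, chosen after its values were seen, had a 48 hour difference of -2.32 (SE 0.14, adjusted p = 1.3e-07), 5.00-fold lower. The dimmest one, with group means between 2.81 and 3.25, was lower at both times, by -0.24 and -0.44 on the log2 scale (adjusted p = 0.046 and 0.00083). CENPA, the histone H3 variant that marks centromeres, was lower at 48 hours by 1.25-fold (log2 difference -0.32, SE 0.06, adjusted p = 0.00077), also from a probe set that can cross-hybridise, and at 6 hours its difference was -0.12 (adjusted p = 0.16).

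The spindle and centrosome group, with 9 genes, was mixed at both times. The rises numbered 5 at 6 hours and 3 at 48 hours, and the falls 2 and 6. ASPM, a protein of spindle poles, read 9.41, 9.46 and 9.50 in PGG 6 h, 7.68, 7.89 and 7.63 in PGG 48 h and 9.81, 9.85 and 9.78 in PBS. It was 4.23-fold lower at 48 hours (log2 difference -2.08, SE 0.08, adjusted p = 5.4e-09) and 1.28-fold lower at 6 hours (log2 difference -0.36, SE 0.08, adjusted p = 0.0051). DLGAP5 encodes HURP, which stabilises the microtubule fibres of kinetochores, and read 8.87, 8.87 and 8.95 in PGG 6 h, 7.21, 7.37 and 7.20 in PGG 48 h and 9.04, 8.99 and 8.95 in PBS. It was 3.32-fold lower at 48 hours (log2 difference -1.73, SE 0.07, adjusted p = 8.4e-09), while its 6 hour arrays overlapped PBS (log2 difference -0.10, adjusted p = 0.38).

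HMMR, a hyaluronan receptor that also sits on the spindle, read 8.95, 8.94 and 8.95 in PGG 6 h, 7.99, 8.23 and 8.20 in PGG 48 h and 9.82, 9.93 and 9.75 in PBS. Its level was lower than in PBS on all PGG arrays, with log2 differences of -0.89 at 6 hours and -1.69 at 48 hours (SE 0.08 each, adjusted p = 1.3e-05 and 2.6e-08). AURKA, the centrosome kinase, and its activator TPX2 were lower at 48 hours by 1.29-fold and 1.42-fold (adjusted p = 0.00045 and 7.1e-05). At 6 hours TPX2 was higher by 0.39 (adjusted p = 0.0011) and AURKA differed by -0.08 (adjusted p = 0.42). KIF11, the kinesin Eg5 that pushes spindle poles apart, was higher by 0.43 at 6 hours and had a difference of -0.33 at 48 hours (SE 0.06 each, adjusted p = 0.00044 and 0.0013).

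KIF2C, NUSAP1 and NEK2 were called higher at both times. KIF2C, the microtubule-depolymerising kinesin MCAK, read 9.63, 9.66 and 9.78 in PGG 6 h, 9.38, 9.38 and 9.38 in PGG 48 h and 8.89, 8.95 and 8.97 in PBS. No PGG array overlapped PBS, and the log2 differences were 0.75 and 0.44 (SE 0.06 each, adjusted p = 8.7e-06 and 0.00016), with 0.81 and 0.22 from its second probe set (adjusted p = 8.3e-06 and 0.022). NUSAP1, a microtubule bundling protein, read 10.45, 10.42 and 10.47 in PGG 6 h, 9.72, 9.83 and 9.77 in PGG 48 h and 9.58, 9.54 and 9.44 in PBS. Its rise of 0.93 at 6 hours (SE 0.06, adjusted p = 2.2e-06) was the largest of the 36 genes at that time, and the 0.25 at 48 hours (SE 0.06, adjusted p = 0.0083) turned to -0.08 on its second probe set (SE 0.14, adjusted p = 0.69). NEK2, a kinase that separates centrosomes, read 8.48, 8.34 and 8.47 in PGG 6 h, 8.52, 8.58 and 8.57 in PGG 48 h and 8.22, 8.27 and 8.15 in PBS. Its differences were small, 0.22 and 0.34 (SE 0.07 each, adjusted p = 0.035 and 0.0014). The NEK2 call at 6 hours was lost in 7 of 20 alternatives, including without replicate 1 or 3 of PGG 6 h or of PBS, and its second probe set was called at neither time (log2 differences 0.23 and 0.17).

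All 4 cytokinesis genes were lower at 48 hours and 2 were higher at 6 hours. KIF23 and KIF20A, kinesins of the central spindle where the cell pinches, moved in opposite directions at the 2 times. KIF23 was higher by 0.75 at 6 hours (SE 0.10, adjusted p = 0.00019) and had a log2 difference of -1.08 at 48 hours (SE 0.10, adjusted p = 4.2e-06), and KIF20A had 0.82 and -0.46 (SE 0.06 each, adjusted p = 4.2e-06 and 0.00012). PRC1, which bundles the microtubules of that structure, and ECT2, the exchange factor that activates RhoA there, were lower at 48 hours by 1.40-fold and 1.72-fold (adjusted p = 9.0e-05 and 7.0e-06). At 6 hours their differences were 0.16 and -0.01 (adjusted p = 0.11 and 0.97).

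TOP2A, the topoisomerase that untangles sister chromatids, read 10.43, 10.10 and 10.16 in PGG 6 h, 9.20, 8.89 and 8.83 in PGG 48 h and 10.74, 10.38 and 10.48 in PBS. The 6 hour arrays overlapped PBS (log2 difference -0.30, SE 0.13, adjusted p = 0.12), and the 48 hour arrays did not, being 2.95-fold lower (log2 difference -1.56, SE 0.13, adjusted p = 1.9e-06). A probe set of nearly the same brightness gave log2 differences of 0.10 (adjusted p = 0.42) and -1.24 (adjusted p = 2.4e-07), so its 6 hour difference had opposite signs on the 2 probe sets, and neither was called.

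Of the 36 genes 19 had several probe sets and 17 had 1. At 48 hours the probe sets of 12 of these 19 genes all had the same call, those of 6 were partly called, and 1 gene, CCNB2, had opposite calls: a dim probe set with group means from 3.86 to 4.38 was higher by 0.52 (adjusted p = 0.0055), against -1.06 on the brightest. At 6 hours the numbers were 10, 8 and 1, the last being CENPF. 

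**Figure D4:**
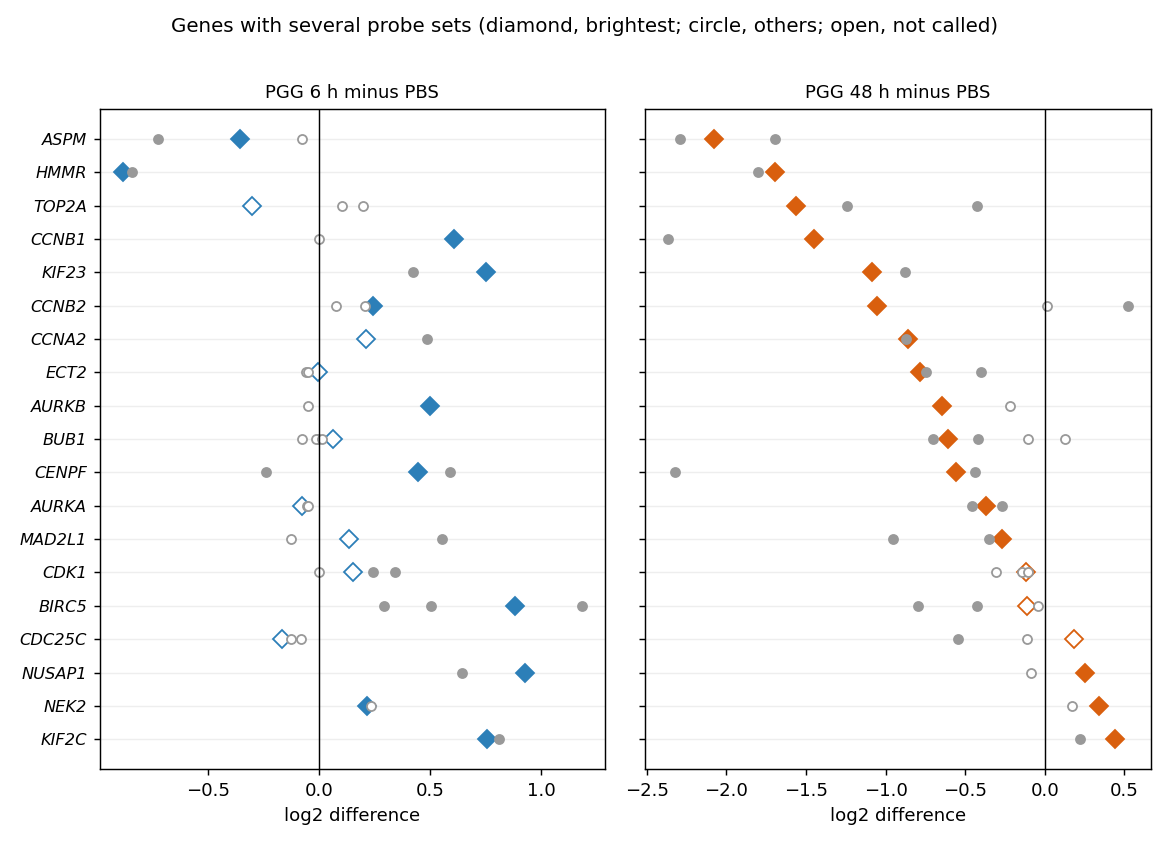
Log2 difference from PBS of every probe set of the 19 genes with several, for PGG 6 h (left) and PGG 48 h (right), with the brightest probe set as a diamond, the others as circles and open symbols where not called. At 48 hours CCNB1 and CENPF each have a second probe set beyond -2.3, far left of the diamond, and the dim CCNB2 probe set stands at 0.52.

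The transcription factors of the cell cycle were then listed. Of 24 measured genes for DREAM, E2F, RB, MYB, FOXM1 and NFY proteins, 10 rose (41.7%) and 6 fell (25%) after 6 hours of PGG. The share over all genes at that time was 15.5% each way. After 48 hours 4 rose (16.7%) and 12 fell (50%). All genes gave 22.9% and 23.2% at 48 hours, so the rises there were no more frequent than over the array. FOXM1, the late G2 activator, read 9.06, 9.05 and 9.03 in PGG 6 h, 8.02, 8.12 and 7.94 in PGG 48 h and 8.40, 8.47 and 8.73 in PBS, a difference of 0.51 and then of -0.51 (SE 0.09 each, adjusted p = 0.0013 and 0.00074). This FOXM1 probe set is of the type that can cross-hybridise. MYBL2 was higher at 6 hours by 0.61 (adjusted p = 0.00021) and was at 0.19 at 48 hours (adjusted p = 0.095). FOXM1 and MYBL2 are named for their role in activating these genes and not by size of change.

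By size, the rises at 6 hours were led by the atypical repressors E2F7 (1.80) and E2F8 (1.59) and by MYBL1 (0.94), and the falls by E2F5 (-1.23), RBL1 (-0.95) and RB1 (-0.67). At 48 hours the MuvB subunit LIN37 was 5.51-fold higher (log2 difference 2.46, SE 0.08, adjusted p = 2.5e-09), at 9.36, 9.17 and 9.43 in PGG 48 h against 6.84, 6.78 and 6.95 in PBS, followed by LIN52 (1.31) and MYBL1 (0.78). The falls were led by E2F5 (-1.68), the DREAM pocket protein RBL1 (-1.39) and NFYB (-1.23), a subunit of the CCAAT-binding factor.

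Mitosis genes outside the 36 were also listed. Of 113 measured (119 listed), 56 rose (49.6%) and 23 fell (20.4%) after 6 hours, with a median log2 difference of 0.21. After 48 hours 28 rose (24.8%) and 52 fell (46%), with a median of -0.12. All genes gave 15.5% each way at 6 hours, and 22.9% higher and 23.2% lower at 48 hours. The rises at 48 hours were thus near the share over the array, and the lists that follow are to be read against the same shares. The share lower at 48 hours was 72.2% for the 36 genes and 46% for the others, a difference that was not tested. In the APC/C list 11 of 15 were lower at 48 hours, led by UBE2S (-1.54), ANAPC7 (-1.27) and ANAPC4 (-0.77), while CDC26 was higher (0.28). Of 33 further kinetochore and checkpoint genes 16 were lower and 10 higher at 48 hours, the falls led by SPDL1 (-1.56), SKA2 (-1.42) and OIP5 (-1.25) and the rises by DSN1 (0.99), CENPU (0.75) and CENPN (0.64).

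Of 24 further spindle and cytokinesis genes 10 were lower at 48 hours, among them KNSTRN (-2.11), KIF14 (-1.68) and ARHGAP11A (-1.05). The 5 higher ones, a share near the 22.9% of all genes, included STIL (1.06), RACGAP1 (0.82), the partner of KIF23, and CEP55 (0.77). In the condensin and cohesin list 5 of 21 were higher, led by CDCA5 (1.51), ESCO1 (1.51) and NCAPH (0.90), a share near the 22.9% of all genes, and 8 lower, led by PDS5B (-1.30), PDS5A (-0.80) and NCAPG (-0.75). Among 20 other regulators of G2 and M phase 7 were higher and 7 lower at 48 hours. CDCA2, which recruits phosphatase to chromatin at mitotic exit, had the largest rise of these (2.86), followed by MASTL (1.37) and BORA (1.26), and the kinase PBK the largest fall (-1.86), followed by CDC25A (-0.78) and CCNF (-0.51).

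The neighbouring phases give the setting for these values. Of 46 DNA replication genes 41 were higher at 6 hours (89.1%), led by RRM2 (2.23), MCM10 (1.57) and MCM5 (1.44), with RFC1 lower (-0.51). At 48 hours 27 were lower (58.7%), led by GINS1 (-1.62), POLA1 (-1.57) and POLD2 (-1.39). Another 8 were higher (17.4%, below the 22.9% of all genes), led by CDT1 (1.09), ORC1 (0.70) and RRM2 (0.69). Of 16 measured CDK inhibitors and other antiproliferative genes 11 were higher at 48 hours (68.8%), led by CDKN1C (3.49), CCNG2 (3.24) and GADD45B (2.51). At 6 hours 4 were higher (25%) and 6 lower (37.5%), against 15.5% of all genes each way, and CDKN1C was among the lower ones (-0.80). CDKN3, a phosphatase that opposes CDK1 and CDK2, was the 1 gene of that list that was lower at 48 hours (-1.45).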

How the data were processed

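Huh7 RNA was hybridised to Affymetrix arrays, 3 per group. The authors deposited log2 values with 2 decimals for 54675 probe sets, made per the labels by RMA in Affymetrix Expression Console (version not given in the sources used here). RMA equalises the distribution of values between arrays, so a change shared by most genes would not be seen, and the number of arrays limits the precision. From these values 62 control probe sets were left out. Genes were named from the platform annotation, where 41091 probe sets had 1 symbol, 1801 several and 11721 none. A mean per group was fitted with limma 3.58.1 (lmFit and eBayes, R 4.3.3) over all 9 arrays, with Benjamini-Hochberg adjustment over 54613 probe sets. The fit was tested on simulated data. Array values are given for the 8 largest changes at 48 hours, the 5 largest at 6 hours, every member higher at 48 hours and PLK1, and of each other list up to 3 rises and 3 falls are named. The members and lists were chosen with earlier results of these data known. Alternatives covered the normalization, the choice of probe set, the filter on dim probe sets, the model and each array left out.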

Additional observations from a re-analysis of the deposited data

Results flagged for a closer look

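Of the 36 genes 10 were called in opposite directions against PBS at 6 and 48 hours, with no PGG array overlapping PBS. These 10 are 27.8% of the members, where 6.36% of all 19775 genes met the same rule, and the difference between these shares was not tested. The direct limma comparison of PGG 48 h with PGG 6 h passed the test for each of the 10. That outcome follows from how they were picked, in the same fit, and adds no support. Both differences use the same PBS arrays. The log2 difference PGG 48 h minus PGG 6 h was -2.05 for CCNB1, -1.83 for KIF23, -1.53 for PTTG1, -1.30 for CCNB2, -1.28 for KIF20A, -1.15 for AURKB, -1.0 for CENPF, -0.90 for TPX2 and -0.76 for KIF11, all higher at 6 hours and lower at 48 hours. AURKB and CCNB2 were called at neither time on their second-brightest probe sets. CCNB1 was not called at 6 hours on its other probe set (log2 difference -0.00, limma adjusted p = 0.98). The dimmest CENPF probe set was lower at both times, and the other KIF23 probe set overlapped PBS at 6 hours. KIF11, KIF20A, TPX2, PTTG1 and TTK had 1 probe set each. For TTK, lower at 6 hours and higher at 48 hours, it was 1.22. The highest adjusted p of the 10 was 2.3e-06, for KIF11. No gap of a single array from its group was tested, since each group has 3 arrays.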

How the results depend on the processing

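At the study's cut-offs the counts of higher and lower members were 0 and 1 at 6 hours, 0 and 8 at 48 hours, and 0 and 7 for PGG 48 h minus PGG 6 h. Of all 19775 genes 69 and 107, 611 and 422, and 501 and 308 passed, in the same order. With the methods' t-test at those cut-offs the members' counts were 0 and 1, 0 and 6, and 0 and 6, for which no share over all genes is given here. With the second-brightest probe set the median log2 difference at 6 hours was 0.017, 2 members were higher at 48 hours and 1 in PGG 48 h minus PGG 6 h, and NUSAP1 at 48 hours turned to -0.083. The 17 members with 1 probe set kept it in that setting, so their results could not change there. With the mean of all probe sets 1 member was higher in PGG 48 h minus PGG 6 h, and the medians were -0.50 at 48 hours and -0.74 for PGG 48 h minus PGG 6 h. In that comparison the CDC25C call was lost both with the second-brightest probe set and with the mean. The median at 6 hours ranged between 0.051 and 0.13 when single arrays were left out. The cause of these shifts was not tested, apart from the stricter cut-offs, which call fewer genes by construction.

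With the replicate number as a block, 12 members were higher and 7 lower at 6 hours, 4 higher and 26 lower at 48 hours, and 2 higher and 31 lower in PGG 48 h minus PGG 6 h. The deviations of same-numbered arrays correlated at -0.089 to 0.162. In 4 of 9 comparisons of an array with those of another group, the same number correlated highest. None of these 4 was between PGG 6 h and PBS. Each group has few arrays, so these values cannot decide whether same-numbered arrays share more than a number. Of the called members, 15 of 19 at 6 hours and 25 of 30 at 48 hours kept their call in all 20 alternatives with the threshold unchanged. Among these alternatives, the second-brightest probe set could not change the call of a member with only 1 probe set. The alternative adjusting over 1 probe set per gene and the methods' t-test at the study's cut-offs were chosen after seeing the data.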

Other observations

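A probe set that the annotation pairs with both SLC35F6 and CENPA was not counted among the members. It read 7.16, 7.16 and 7.13 in PGG 6 h, 6.87, 7.08 and 6.94 in PGG 48 h and 7.36, 7.35 and 7.33 in PBS. The log2 difference was -0.20 at 6 hours (limma, adjusted p = 0.057) and -0.38 at 48 hours (adjusted p = 0.00074), and which of the 2 genes it reads cannot be told apart.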
